A study of Mus musculus with 18 samples.

Results

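The urothelial transcription factors described here are 9 genes: Pparg, Foxa1, Gata3, Elf3, Ehf, Grhl3, Klf5, Trp63 and Foxq1. They were chosen by name, as 9 of the 29214 gene symbols of the bulk table, and all 9 passed the filter on low counts in every comparison below. The series is an atlas of the C57BL/6 mouse urinary bladder with 18 samples: 8 droplet libraries, 4 Visium sections and 6 bulk RNA libraries. Of 5 whole-bladder cell libraries, 2 are all male by their labels (3 animals each), aged 22 and 3 months. The other 3 were mixed (2 females with 2 males each), 2 of them aged 12 months and 1 aged 24 months. The same mix was used for a nuclear preparation of 12-month bladders and for a detrusor-enriched preparation of 14-month bladders, and the detrusor layer alone came from 3 females aged 14 months. Frozen sections were labelled 22 months (2 sections) and 14 months (2 sections), each with 4 males. Bulk RNA came from intact bladders (3 libraries) and from dissociated bladders (3 libraries), all labelled 12 months with 3 females. No treatment or altered allele is labelled. The labels give numbers of animals and do not say how these were pooled. No label ties a bulk library, a section or a cell library of the same age to separate animals. The p-values therefore measure the spread between these libraries and sections, which may be technical.

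Droplet libraries held 5197910 (nuclei) to 55374101 UMIs, where a UMI is a counted RNA molecule, the sections 21976101 to 32021223 UMIs, and the bulk libraries 23083752 to 68760791 reads. The 2 male cell libraries differ from the 3 mixed ones in barcode length and gene list as well as in sex. Cells were grouped by clustering without the 9 genes, and a class was called urothelial-like from uroplakins, keratins and other epithelial markers. Urothelial-like cells numbered 1142 and 1486 in the male libraries of 22 and 3 months, 2099 and 740 in the 12-month libraries and 1889 in the 24-month library. The nuclei gave 1279 urothelial-like nuclei, the detrusor-enriched library 347 cells and a further cluster of 1225 shallow barcodes (median 593 UMIs), and the detrusor-only library none. At most 58 cell barcodes were shared by any pair of libraries.

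As background, the urothelium is a layered epithelium of basal, intermediate and superficial cells, and its superficial cells carry plaques of uroplakin proteins that seal the bladder. Pparg is a nuclear receptor known both for urothelial differentiation and as the main regulator of fat cells. Foxa1 is a forkhead factor that opens chromatin, and Gata3 is a zinc-finger factor used as a marker of urothelium and known as a regulator of T helper cells. Elf3 and Ehf are epithelial members of the ETS family. Grhl3 is a grainyhead-like factor known for the final step of superficial-cell differentiation, and Klf5 is a Krüppel-like factor of proliferating and differentiating epithelia. Trp63 encodes p63, the factor of basal epithelial cells, and Foxq1 is another forkhead factor.

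In the RefSeq annotation of GRCm38.p6, the mouse build also called mm10, Pparg lies at chr6:115360879-115490404, Foxa1 at chr12:57540628-57548029 and Gata3 at chr2:9857078-9887953. Elf3 lies at chr1:135253574-135258472, Ehf at chr2:103263431-103303275 and Grhl3 at chr4:135541887-135573632. Klf5 lies at chr14:99298691-99313412, Trp63 at chr16:25683763-25892088 and Foxq1 at chr13:31558170-31560976. Promoter windows of 300 bases, from 250 before to 50 after a RefSeq transcription start, were found for 5 of the 9 genes. The windows of 4 genes are shown because Grhl3 and Foxa1 had near-parallel class profiles, and because Gata3, Elf3 and Grhl3 differed between libraries in their relation to uroplakin level. Capitals mark matches, on both strands, to the letters of 5 motifs. The forkhead motif was searched with the letters TGTTTAC. Binding sites of the GATA family were searched with the letters AGATAA. For grainyhead-like factors the letters were AACNNGTT, with N for any base. For the ETS family, which holds Elf3 and Ehf, the core searched was AGGAAG. The Krüppel-like (KLF) motif was searched with the letters CCNCNCCC. The windows are Foxa1 at chr12:57546062-57546361, Gata3 at chr2:9878551-9878850, Elf3 at chr1:135258423-135258722 and Grhl3 at chr4:135573583-135573882, all on the minus strand and written 5′ to 3′ on that strand:
Foxa1: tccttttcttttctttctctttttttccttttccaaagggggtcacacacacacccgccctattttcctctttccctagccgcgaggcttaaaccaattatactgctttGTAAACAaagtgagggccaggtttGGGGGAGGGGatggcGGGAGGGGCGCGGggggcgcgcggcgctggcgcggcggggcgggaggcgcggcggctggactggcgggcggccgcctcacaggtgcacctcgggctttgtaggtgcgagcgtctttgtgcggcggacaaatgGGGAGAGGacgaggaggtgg
Gata3: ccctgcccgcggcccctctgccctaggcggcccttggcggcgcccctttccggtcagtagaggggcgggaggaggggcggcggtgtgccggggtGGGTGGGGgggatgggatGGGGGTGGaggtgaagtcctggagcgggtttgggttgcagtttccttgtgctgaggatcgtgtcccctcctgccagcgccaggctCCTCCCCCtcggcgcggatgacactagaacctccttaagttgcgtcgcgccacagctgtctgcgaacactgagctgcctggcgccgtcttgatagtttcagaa
Elf3: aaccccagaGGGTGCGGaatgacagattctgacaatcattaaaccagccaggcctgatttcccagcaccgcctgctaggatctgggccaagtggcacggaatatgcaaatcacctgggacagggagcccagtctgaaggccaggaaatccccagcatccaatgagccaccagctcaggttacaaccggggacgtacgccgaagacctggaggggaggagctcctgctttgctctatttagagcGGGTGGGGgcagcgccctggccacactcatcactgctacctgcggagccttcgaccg
Grhl3: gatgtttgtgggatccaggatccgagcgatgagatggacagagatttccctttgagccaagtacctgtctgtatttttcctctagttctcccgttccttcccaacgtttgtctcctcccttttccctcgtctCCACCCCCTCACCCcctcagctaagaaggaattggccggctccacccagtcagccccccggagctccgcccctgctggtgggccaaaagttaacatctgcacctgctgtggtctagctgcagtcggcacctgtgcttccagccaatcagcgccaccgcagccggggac
The Foxa1 window held 5 KLF matches and 1 forkhead match, the Gata3 window 3 KLF matches, and the Elf3 and Grhl3 windows 2 KLF matches each, and some KLF matches overlap each other. The GATA, grainyhead and ETS letters were in none of these 4 windows. Among all 32851 RefSeq windows of this length, 49.5% held the KLF letters, 35.4% the ETS letters, 11.2% the GATA letters, 4.2% the grainyhead letters and 3.65% the forkhead letters. A match is a description of the letters only.

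All 9 genes had their highest level in the urothelial-like class in each of the 5 whole-bladder libraries. Levels are UMIs of a gene scaled to a fixed total of UMIs in the class (CPM), are not scaled by transcript length and are not compared between genes. Foxq1 was at 2489 and 2286 CPM in the male libraries of 22 and 3 months, 1570 and 1678 CPM in the 12-month libraries and 1470 CPM in the 24-month library. At least 1 Foxq1 UMI was found in 93.1% to 99.8% of the cells. Other cells can hold such UMIs too, as did 29.0% of Schwann-like cells of the detrusor-enriched library, so this share is not read alone. Against all other cells of the same whole-bladder library, the Foxq1 level was 14.5-fold to 52.6-fold higher, with a median of 23.1-fold.

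Grhl3 gave 38.3 and 42.9 CPM in the male libraries, 77.0 and 78.9 CPM in the 12-month libraries and 65.0 CPM in the 24-month library. A Grhl3 UMI was found in 9.2% to 59.1% of urothelial-like cells, and in 3.0% to 8.5% once every cell was thinned to 1000 UMIs. In fibroblast-like cells, taken as a class that should lack the gene, the thinned share was 0.1% to 0.7%. The male libraries were the low ones for Grhl3. Their urothelial-like cells were also the shallowest, with medians of 4092 and 3126 UMIs against 13087 to 18315.5 UMIs in the mixed libraries.

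Pparg was at 158.3 and 176.8 CPM in the male libraries and at 90.2, 72.4 and 91.8 CPM in the mixed libraries of 12, 12 and 24 months. Trp63 was at 198.4 and 288.0 CPM in the male libraries and at 138.2, 90.5 and 158.0 CPM in the mixed ones. In CPM, the male libraries were the high ones for both genes. On the normalised scale of the tests, Trp63 in the 22-month male library lay below the first 12-month and the 24-month library. No test was run between male and mixed libraries on these levels.

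In CPM, the libraries lay closer together for the remaining factors than for Grhl3, Pparg and Trp63. This did not hold for all of them on the normalised scale of the tests. There the mean over the 5 libraries was 425.5 (SD 144.3) for Elf3, 324.4 (SD 98.6) for Klf5 and 125.7 (SD 42.6) for Foxa1. Gata3 was at 360.4 (SD 55.7) and Ehf at 126.0 (SD 14.6). Grhl3 was at 79.6 (SD 40.4), Pparg at 134.8 (SD 17.3) and Trp63 at 200.2 (SD 44.2). Elf3 ranged from 301.1 to 400.5 CPM, Gata3 from 214.4 to 375.1 CPM and Klf5 from 227.2 to 296.5 CPM. Foxa1 ranged from 83.4 to 118.0 CPM and Ehf from 81.7 to 131.9 CPM. Of all UMIs of a gene in a library, the urothelial-like cells held 90.6% to 99.6% for the 8 factors other than Pparg, and 73.6% to 98.3% for Pparg. Of the UMIs of every gene in the same classes, the urothelial-like cells held 21.0% and 37.6% in the male libraries of 22 and 3 months. They held 88.2% and 91.0% in the 12-month libraries and 83.3% in the 24-month library. In the library with the lowest of these shares, the 22-month male library, they held 73.6% of the UMIs of Pparg and 90.6% of those of Grhl3.

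**Figure D1:**
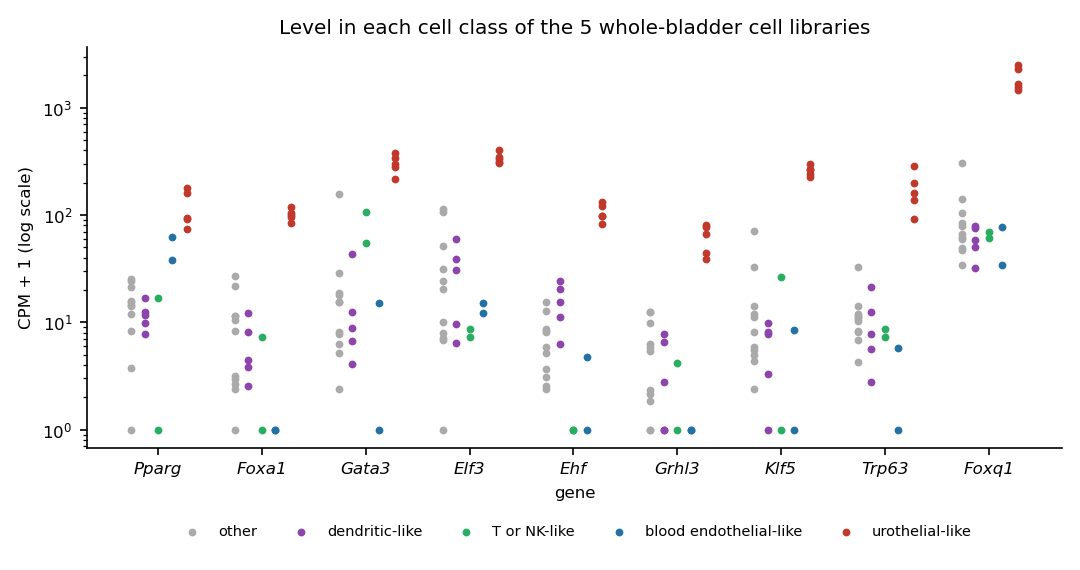
Level of each gene (CPM + 1, log scale) in every named cell class of 50 or more cells in the 5 whole-bladder cell libraries, 1 point per class and library. The urothelial-like points lie above all other classes of the same library for each gene.

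Pparg, Gata3 and Ehf each had a level in another class that stood above that of summed urothelial markers. RNA released from urothelial cells (free RNA) can reach other droplets, and its level was not measured. The summed level of 13 urothelial markers was therefore set beside each gene, both as a percent of the urothelial-like level of the same library. In blood endothelial-like cells of the male libraries of 22 and 3 months, the markers were at 1.7% and 2.7%. Pparg there was at 23.5% and 35.0%, or 37.2 CPM (10 UMIs, exact Poisson 95% interval 17.8 to 68.4) and 61.8 CPM (13 UMIs, 32.9 to 105.8), and these intervals cover counting error only. In the detrusor-enriched library, Pparg was at 21.1% in blood endothelial-like and 38.5% in lymphatic endothelial-like cells, against 3.0% and 4.5% for the markers.

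Gata3 stood above the markers in T or NK-like cells. Its level was 30.8% and 14.3% of the urothelial-like level in the male libraries of 22 and 3 months, or 105.0 CPM (33 UMIs) and 53.8 CPM (7 UMIs), where the markers were at 2.4% and 2.8%. Ehf stood above the markers in dendritic-like cells, at 16.1% and 10.9% in the male libraries (25 and 5 UMIs, markers at 2.3% and 2.7%). It was at 20.02% in the detrusor-enriched library (38 UMIs, markers at 3.0%) and at 24.4% in the first 12-month library (21 UMIs, markers at 9.7%). In macrophage-like cells of the detrusor-enriched library Ehf was at 11.6% (31 UMIs in 16 cells, markers at 2.4%), and at 1.0% and 3.5% in those of the 3-month and 22-month male libraries (1 and 5 UMIs, markers at 2.1% and 2.2%). No excess in dendritic-like cells was seen in the second 12-month library, with Ehf at 6.5% (3 UMIs) and the markers at 7.7%. Nor was it seen in the 24-month library, with Ehf at 10.6% (9 UMIs), Elf3 at 11.4%, Trp63 at 13.02% and the markers at 8.1%. In fibroblast-like cells, Pparg was at 9.2%, 4.1%, 12.1%, 18.8% and 16.1% in the male libraries of 22 and 3 months, the 12-month libraries and the 24-month library. The markers were lower in each, at 1.9%, 2.1%, 8.9%, 10.1% and 7.4%. In the 12-month libraries other factors came near the Pparg value in these cells, with Elf3 at 12.6% in the first and Grhl3 at 14.6% in the second.

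Pparg also stood above the markers in some macrophage-like and dendritic-like cells. In macrophage-like cells it was at 14.7% in the 22-month male library (28 UMIs, markers at 2.2%), 9.6% in the detrusor-enriched library (16 UMIs, markers at 2.4%) and 26.3% in the 24-month library (10 UMIs, markers at 8.4%). It was not above them in the 3-month male library, at 1.6% against 2.1%, and near them in the first 12-month library, at 22.5% against 21.2%. In dendritic-like cells Pparg was at 28.6% in the detrusor-enriched library (34 UMIs, markers at 3.0%), 6.8% and 6.5% in the male libraries of 22 and 3 months (14 and 4 UMIs, markers at 2.3% and 2.7%) and 22.0% in the second 12-month library (9 UMIs, markers at 7.7%). It was near the markers in the first 12-month library, at 9.9% against 9.7%, and in the 24-month library, at 7.5% against 8.1%. In dendritic-like cells of the second 12-month library, Gata3 was at 19.8% (24 UMIs in 12 cells), and at 0.90% to 3.86% in that class of the other 5 libraries. In T or NK-like cells of the 22-month male library Klf5 was at 9.5% (8 UMIs) with the markers at 2.4%, and it had 0 UMIs in that class of the 3-month male library. Several other values outside the urothelium came with a high marker level. The macrophage-like class of the first 12-month library (52 cells) held Foxq1 at 19.4%, Elf3 at 28.3% and Foxa1 at 27.4% of the urothelial-like level, with the markers at 21.2%. Gata3 in these cells stood further above the markers, at 56.1% (54 UMIs in 18 cells). It was at 0.37% to 4.88% in macrophage-like cells of the male, 24-month and detrusor-enriched libraries. The B or plasma-like class of the first 12-month library (61 cells) held Elf3 at 26.5% with the markers at 17.7%. The part of free RNA or of remaining doublets in these classes was not tested.

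The detrusor-only library has no urothelial-like class, and the factors fell into a group near 0 and a group with counts in other cells. Over 5365 cells in 12 classes and 46298210 UMIs, Foxa1 and Elf3 gave 1 UMI each, Trp63 4 UMIs, and Grhl3 0 UMIs, which allows up to 0.0648 CPM (3 UMIs) by counting error. Pparg gave 1026 UMIs and was found in 12 of the 12 classes, with only 1 UMI each in Schwann-like, shallow Schwann-like and mesothelial-like cells. It was at 29.6 CPM in fibroblast-like cells, 29.5 CPM in lymphatic endothelial-like cells, 23.7 CPM in pericyte-like cells and 18.8 CPM in blood endothelial-like cells. Klf5 gave 886 UMIs, with 24.5 CPM in fibroblast-like and 55.2 CPM in mesothelial-like cells, which line the outer surface of the organ.

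Gata3 in the detrusor-only library was at 131.9 CPM in T or NK-like cells (58 of its 134 UMIs, 83 cells) and at 10.1 CPM in blood endothelial-like cells. Ehf was at 5.96 CPM in macrophage-like cells (17 of its 39 UMIs, in 13 cells). A further 18 Ehf UMIs lay in 1 of the 68 dendritic-like cells, so no level of that class is read from them. Foxq1 gave 54 UMIs, 24 of them in mesothelial-like cells (9.82 CPM). With 1 library of this kind, these levels have no replicate check.

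Over 25 class profiles of the 5 whole-bladder libraries and 8479 genes, the profiles most like each factor are given as a description, since profiles of a library share depth and free RNA. The closest pair among the 9 genes was Foxa1 and Grhl3, with Pearson r = 0.96 on log2(CPM + 1). Ugt2b34 (r = 0.97) and Upk3a (0.96), a uroplakin, were the other genes most like Foxa1. Gsta1 (0.96) and Upk3a (0.95) followed for Grhl3. Foxq1 was closest to Igfbp2 (0.99), Upk1a (0.98) and Gsta4 (0.98). Trp63 was closest to Foxq1 (0.93), Igfbp2 (0.93) and Upk1a (0.93). Elf3 was close to Lypd3 (0.97) and Sprr2a3 (0.96). Klf5 was closest to Gm26894 (0.94), Grhl3 (0.93) and Ank3 (0.93). Gata3 was closest to the water channel gene Aqp3 (0.93), Kbtbd11 (0.91) and Rnf128 (0.91). Ehf was closest to 9530036O11Rik (0.93), Prss8 (0.92) and S100a14 (0.90). Pparg was closest to Pllp (0.89), Abhd6 (0.87) and Mecom (0.87), and its correlation with the other 8 factors ran from 0.54 (Gata3) to 0.75 (Elf3).

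Within the urothelium, Grhl3 was higher and Trp63 and Klf5 were lower in the cells with the most uroplakin than in those with the least. Foxa1 was lower only in the cells with the most uroplakin. The urothelial-like cells of each library were split into 3 parts of equal size by the share of their UMIs in Upk1a, Upk1b, Upk2 and Upk3a. The lower border lay at 0.26% to 0.444% and the upper at 0.459% to 0.893% of a cell's UMIs, depending on the library. The highest part (uroplakin-high) was tested against the lowest (uroplakin-low) over the 5 libraries, with the library as a term. By edgeR's quasi-likelihood test with Benjamini-Hochberg adjustment over 10647 genes, 4 of the 9 factors passed, 1 higher and 3 lower, where 31.5% of all genes passed (15.3% higher and 16.3% lower). With scaling by library size alone the higher calls made up 36.4% of all calls, against 48.4% here, and 6 of the 9 factors passed, where 30.4% of all genes did.

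Grhl3 was at 12.0 and 18.5 normalised CPM in the uroplakin-low cells of the male libraries of 22 and 3 months, and at 73.8, 82.4 and 59.5 in those of the 12-month libraries and the 24-month library. In uroplakin-high cells the values were 48.2 and 40.7 in the male libraries and 110.8, 103.5 and 95.5 in the mixed ones. Grhl3 was higher in 5 of 5 libraries, as were 16.5% of all genes (16% were lower in 5 of 5). The difference was 0.69 on the log2 scale (SE 0.15, edgeR adjusted p 0.00608). In CPM, the second 12-month library had its highest Grhl3 level in the middle cells, at 66.4, 88.2 and 79.9 from low to high uroplakin.

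Trp63 went the other way in 5 of 5 libraries. Its uroplakin-low values were 199.8 and 270.3 in the male libraries and 213.8, 167.6 and 242.0 in the mixed ones, and its uroplakin-high values were 135.3 and 200.8, then 147.4, 88.5 and 177.4. It fell by 0.57 on the log2 scale (SE 0.07, adjusted p 3.67e-06). Klf5 fell by 0.55 (SE 0.05, adjusted p 3.37e-07), from 271.3, 213.6, 444.7, 424.5 and 337.1 normalised CPM to 194.2, 141.4, 294.9, 271.8 and 247.0 in the same order of libraries. Every library was lower for both genes.

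Foxa1 fell by 0.23 (SE 0.07, adjusted p 0.0201) and was lower in 5 of 5 libraries. In CPM it did not fall from the uroplakin-low to the middle cells. It went from 98.1 to 98.4 and 104.2 to 112.0 in the male libraries of 22 and 3 months. In the mixed libraries it went from 98.2 to 98.9, 129.8 to 131.6 and 108.0 to 108.1. Over all settings the Foxa1 difference ran from -0.36 to -0.10, and its call was lost in several of them. Among these, DESeq2 gave Foxa1 an adjusted p of 0.0889 and cells thinned to 1000 UMIs 0.756. Without the second 12-month library edgeR gave 0.0908, and without the 24-month library 0.0553. Foxq1 (-0.13, adjusted p 0.0692), Ehf (0.10, adjusted p 0.277), Pparg (-0.02, adjusted p 0.868), Gata3 (0.23, adjusted p 0.161) and Elf3 (-0.13, adjusted p 0.357) did not pass. The median depth of uroplakin-high cells exceeded that of uroplakin-low cells in each library, from 3655 against 2562.5 UMIs to 22445 against 15503 UMIs. After thinning, Grhl3 (0.58, adjusted p 0.0411), Klf5 (-0.62) and Trp63 (-0.36, adjusted p 0.015) still passed.

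Gata3 rose and Elf3 fell with uroplakin in the mixed libraries, and neither passed in the male ones. This split was made after the data were seen, so its p-values, and those of the interaction below, are not independent evidence. Gata3 was 0.45 higher on the log2 scale in uroplakin-high cells of the 3 mixed libraries (SE 0.04, adjusted p 3.91e-10), and at -0.16 in the 2 male libraries (SE 0.09, adjusted p 0.316). Its values went from 292.9 to 403.8, 222.7 to 312.2 and 322.0 to 420.4 in the mixed libraries, and from 297.5 to 256.5 and 296.9 to 275.4 in the male ones. Elf3 fell by 0.32 in the mixed libraries (SE 0.04, adjusted p 2.41e-07) and was at 0.25 in the male ones (SE 0.10, adjusted p 0.0877). In CPM, the cells in the middle by uroplakin had the highest Elf3 level in 4 of the 5 libraries, the exception being the second 12-month library.

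The difference between male and mixed libraries was tested as an interaction term in edgeR, where 2.71% of 10647 genes passed. Gata3 (0.60, SE 0.09, adjusted p 0.000167), Elf3 (-0.57, SE 0.09, adjusted p 0.000412) and Grhl3 (-0.998, SE 0.24, adjusted p 0.0214) differed, as mixed minus male. For Grhl3 the direction was the same and the male difference larger, at 1.54 against 0.56. Its uroplakin-low values rest on 22 and 32 UMIs in the male libraries of 22 and 3 months. In the mixed libraries they rest on 558, 268 and 386 UMIs. Sex, barcode length, gene list and cell depth go together in these libraries and cannot be told apart. Fibroblast markers summed over urothelial-like cells split the libraries the same way, at 2673 to 2873 CPM and 752 to 934 CPM in the male libraries against 68.9 to 198.6 CPM in the mixed ones. Their part in the difference was not tested.

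**Figure D2:**
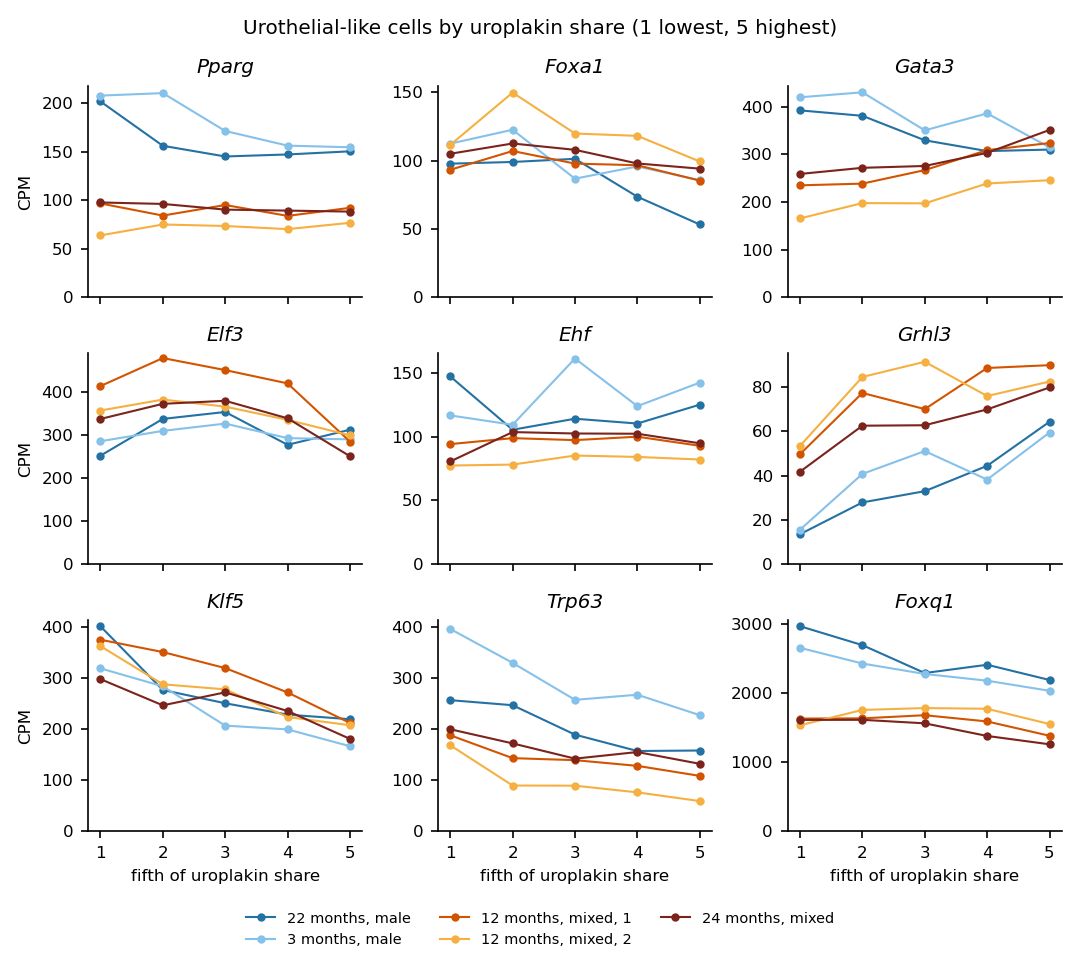
Level of each gene (CPM) in urothelial-like cells of the 5 whole-bladder libraries, in 5 equal steps of uroplakin share from lowest (1) to highest (5), 1 line per library. Klf5 and Trp63 are lower in step 5 than in step 1 in every library and Grhl3 is higher, while Gata3 runs down in the male lines and up in the mixed ones.

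Other gene lists moved in the same split. All 5 uroplakins were higher, 4 of them by construction of the split. Of 10 basal attachment genes tested, 8 fell and 0 rose (median -0.75, against -0.02 over all genes), with the hemidesmosome collagen Col17a1 at -3.45 and the integrin Itga3 at -2.13. Of 23 other epithelial factors, 11 fell and 1 rose: Klf4 was at -1.62 and Cebpb at -1.05, and Elf5, another ETS factor, was at 1.72. Of 9 Pparg targets tested, 3 rose, among them the fatty acid carriers Fabp5 (1.24) and Fabp4 (0.94), and 3 fell, among them Pdk4 (-0.59). Of 8 fibroblast markers, 0 passed edgeR's test.

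In urothelial-like nuclei of the single nuclei library, Elf3 was lower and Trp63 higher than in urothelial-like cells under both ways of scaling. Over all settings the Trp63 log2 difference ran from 0.73 to 2.15. The Trp63 call was lost with some libraries left out and also in another setting. The nuclei library was set against the 5 cell libraries and assumed to vary like them. The spread between nuclei libraries was not measured, and the p-values rest on that of the cell libraries. By edgeR's quasi-likelihood test 3 of the 9 factors passed, 1 higher and 2 lower, where 35.1% of 13353 genes passed (15.9% higher and 19.2% lower). The nuclei value lay outside the range of the cells for 6 of the 9, as for 73.5% of genes. With library size alone the median over all genes moved from -0.03 to 1.13, and higher calls from 45.2% to 89.6% of all calls. Log2 differences below are therefore relative to the bulk of genes.

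Elf3 was at 285.7 and 260.5 normalised CPM in the male cell libraries and 585.5, 512.5 and 483.4 in the mixed ones, against 44.5 in nuclei. It fell by 3.26 on the log2 scale (SE 0.61, adjusted p 0.00775), 9.56-fold, and by 2.02 with library size alone (adjusted p 0.00444). Trp63 was at 184.2, 249.2, 202.0, 135.2 and 230.6 in cells and 411.4 in nuclei, a difference of 1.04 (SE 0.31, adjusted p 0.0383). With library size alone it was 2.15 higher (adjusted p 0.00891), but without the 22-month male, the first 12-month or the 24-month library edgeR's adjusted p was 0.0676, 0.0788 and 0.0602.

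Foxq1 was at 1978 to 2507 normalised CPM in the cell libraries and 834.7 in nuclei. It fell by 1.43 (SE 0.31, adjusted p 0.013), but was at -0.27 with library size alone (adjusted p 0.621), and its adjusted p was 0.051 without the 22-month male library. Ehf (0.57, adjusted p 0.0832), Gata3 (0.51, adjusted p 0.172), Grhl3 (-1.39, adjusted p 0.217), Foxa1 (-0.45, adjusted p 0.495), Klf5 (-0.07, adjusted p 0.917) and Pparg (-0.06, adjusted p 0.873) did not pass. With library size alone, Ehf (1.74), Gata3 (1.68) and Klf5 (1.16) passed as higher, where 42.1% of all genes passed. Against the 12-month cell libraries only, 6 factors passed, among them Grhl3 at -1.90 and Foxa1 at -0.76, where 53% of genes passed.

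Without normalisation between libraries, the nuclei gave 977.6 CPM of Gata3, 786.1 of Trp63, 590.9 of Klf5, 356.4 of Ehf, 247.5 of Pparg, 175.9 of Foxa1, 1595 of Foxq1, 85.01 of Elf3 and 58.1 of Grhl3. On this scale Foxq1 lay inside the range of the 5 cell libraries, 1470 to 2489 CPM. All 8 smooth muscle markers were higher in urothelial-like nuclei than in cells, with a median of 6.86 on the log2 scale. Of 13 urothelial markers, 9 fell and 0 rose. The part of smooth muscle RNA in the nuclei values was not tested. In nuclei of other classes the urothelial markers stood at 14.1% to 33.5% of the urothelial-like level, so no level outside the urothelium is read from this library.

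**Figure D3:**
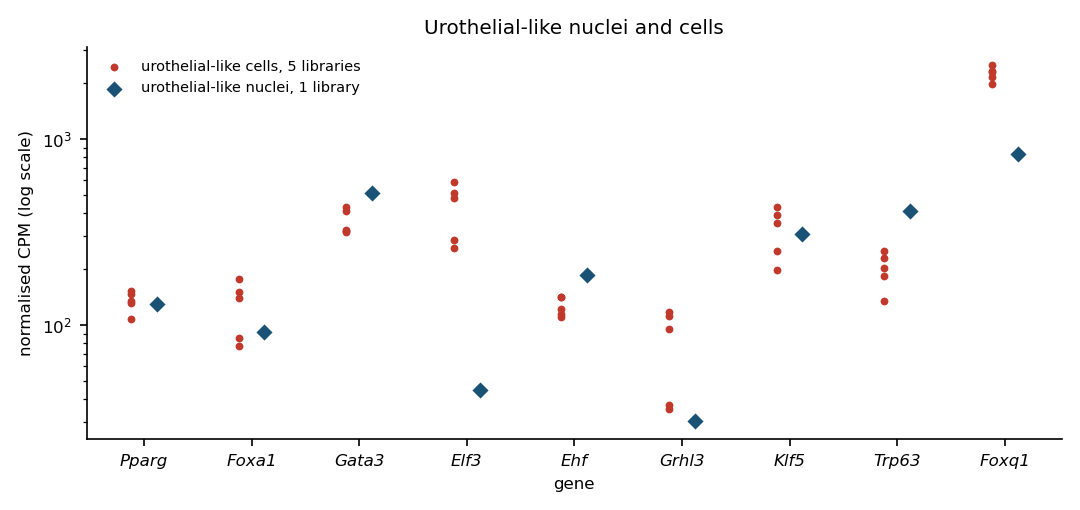
Normalised CPM (log scale) of each gene in urothelial-like cells of the 5 whole-bladder libraries (circles) and in urothelial-like nuclei of the 1 nuclei library (diamond). The Elf3 diamond at 44.5 lies below cells at 260.5 to 585.5, and the Trp63 diamond at 411.4 above cells at 135.2 to 249.2.

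On the sections, all 9 factors were higher in urothelium-rich spots. A Visium spot is a small area that can hold several cells, and the urothelium-rich spots were the 10% of each section with the largest share of UMIs in 13 urothelial markers, none of them among the 9 factors. The sections held 132 and 104 such spots at 22 months and 94 and 112 at 14 months, beside 1185, 934, 843 and 1011 others. By edgeR's quasi-likelihood test over the 4 sections, with the section as a term, 9 of 9 rose, where 67.8% of 13925 genes passed, 33.4% as higher and 34.4% as lower. Each was higher in 4 of 4 sections, as were 36.8% of all genes (36.6% were lower in 4 of 4), and all 9 passed in each alternative run.

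Grhl3 had the largest difference of the 9. It was at 76.0 and 60.03 normalised CPM in the other spots of the 22-month sections and 63.2 and 43.8 in those of the 14-month sections. In urothelium-rich spots it was at 249.7 and 176.1, and at 238.8 and 170.2, a rise of 1.79 on the log2 scale (SE 0.08, adjusted p 3.41e-08), or 3.45-fold. The values of rich and other spots did not overlap.

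Pparg rose by 1.36 (SE 0.12, adjusted p 6.16e-06), from 83.3, 62.9, 52.6 and 50.2 to 205.6, 113.0, 153.4 and 166.6 normalised CPM in the same order of sections. Foxa1 rose by 1.19 (SE 0.11), Foxq1 by 1.10 (SE 0.10), Ehf by 1.06 (SE 0.14), Elf3 by 0.93 (SE 0.11) and Gata3 by 0.86 (SE 0.10). Klf5 rose by 0.74 (SE 0.12, adjusted p 0.000309) and Trp63 by 0.73 (SE 0.12, adjusted p 0.000428). Across sections, the values of rich and other spots overlapped for Elf3 only. The order of the 9 was not tested. In the same spots 5 of 5 superficial urothelium markers rose (median 1.51), all of them among the markers that chose the spots. Of 4 basal urothelium markers 2 rose (median 0.27). The part of the urothelial layers in the order of the 9 was not tested.

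In 5 equal steps of the spots by marker share, Grhl3 went from 9.73 CPM in the lowest to 196.9 CPM in the highest step of the first 14-month section, and from 14.9 to 201.5 CPM in the first 22-month section. Klf5 went from 28.4 to 252.2 CPM and from 27.1 to 188.6 CPM in the same sections. In the second 22-month section Klf5 was at 179.1 CPM in step 4 and 155.8 CPM in step 5. Trp63 was at 143.5 and 140.8 CPM in these steps of the first 22-month section, and at 118.7 and 120.4 CPM in the second. In the 14-month sections it rose between them, from 110.4 to 183.2 CPM and from 124.5 to 198.6 CPM.

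A UMI of Grhl3 was found in 91.3% to 97.9% of urothelium-rich spots and in 29.4% to 43.3% of the others. The urothelium-rich spots were deeper, with medians of 37791.5 to 70000.5 UMIs against 13092 to 16546.5, so these shares are not compared further. All 8 smooth muscle markers (median -3.59) and all 8 fibroblast markers (median -1.92) fell in these spots. Of 23 other epithelial factors 16 rose and 5 fell, with Grhl1 at 1.45 and Ovol1 at 1.36, and Rara at -1.14.

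**Figure D4:**
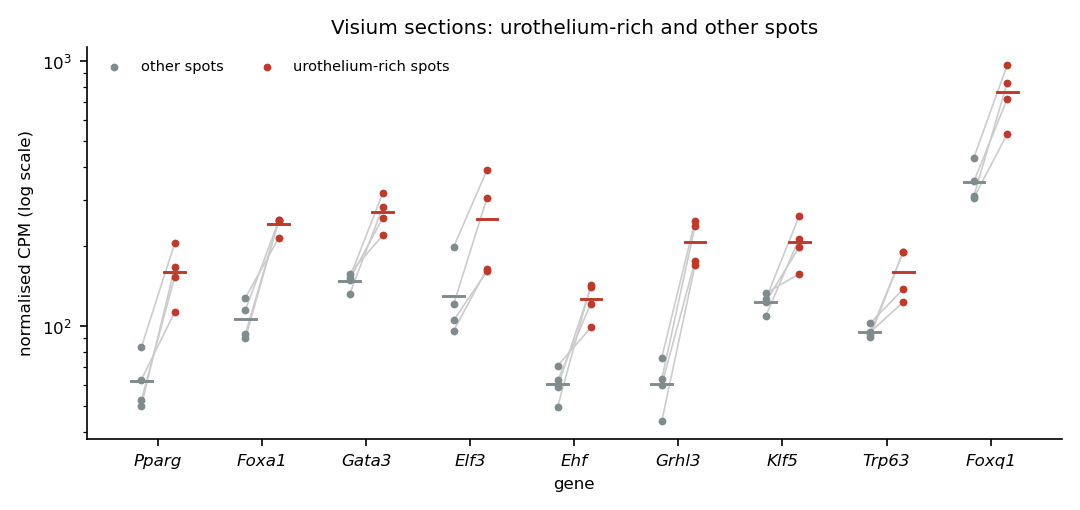
Normalised CPM (log scale) of each gene in the urothelium-rich spots and the other spots of the 4 sections, with lines joining the values of a section and bars at the means. Every line rises, and Grhl3 goes from 43.8 to 76.0 in other spots up to 170.2 to 249.7 in urothelium-rich ones.

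In bulk RNA, Elf3, Foxq1, Klf5 and Grhl3 were higher and Ehf, Gata3 and Trp63 lower in dissociated than in intact bladders. By edgeR's quasi-likelihood test 7 of the 9 factors passed, 4 higher and 3 lower. Of 16538 genes, 59.2% passed, 27.9% as higher and 31.3% as lower, so the number of calls says little about the 9 genes as a group. In bulk RNA, fewer cells of a type and less RNA per cell cannot be told apart.

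Elf3 was at 65.4, 57.4 and 54.4 normalised CPM in intact and 146.1, 118.0 and 165.2 in dissociated bladders. The groups did not overlap, as for 67.2% of all genes, and the rise was 1.28 on the log2 scale (SE 0.13, adjusted p 0.00016), or 2.42-fold. Foxq1 was at 133.4, 132.9 and 132.8 in intact and 209.0, 242.2 and 326.0 in dissociated bladders, a rise of 0.96 (SE 0.15, adjusted p 0.00123). Klf5 rose by 0.96 (SE 0.20, adjusted p 0.00403), from 55.1, 46.4 and 49.7 to 74.7, 88.8 and 130.4. Grhl3 rose by 0.75 (SE 0.17, adjusted p 0.00706), from 105.2, 109.0 and 119.0 to 146.2, 174.0 and 240.3.

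Ehf, the ETS relative of Elf3, went the opposite way. It was at 175.4, 174.1 and 152.8 normalised CPM in intact and 102.4, 100.5 and 115.2 in dissociated bladders, and fell by 0.66 (SE 0.09, adjusted p 0.000625). Gata3 fell by 0.65 (SE 0.13, adjusted p 0.00416), from 155.5, 145.1 and 137.2 to 83.3, 81.9 and 113.6. Trp63 fell by 0.43 (SE 0.15, adjusted p 0.0421), from 164.2, 147.3 and 128.8 to 102.2, 91.3 and 133.5, and its groups overlapped. The Trp63 call was lost with RLE size factors (edgeR adjusted p 0.0718), without the first or second intact library (0.131 and 0.0922) and without the first or second dissociated library (0.137 and 0.138).

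Foxa1 (0.20, SE 0.21, adjusted p 0.424) and Pparg (0.01, SE 0.16, adjusted p 0.949) did not pass. Pparg was at 91.0, 87.3 and 100.7 normalised CPM in intact and 72.6, 92.6 and 116.3 in dissociated bladders. The third dissociated library had the highest value of its group for all 9 factors. Its summed urothelial markers were at 9100 CPM, against 6064 and 5985 CPM in the other dissociated libraries and 8594, 7337 and 7913 CPM in the intact ones.

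Markers of other cells moved between the same groups. All 8 smooth muscle markers (median -3.94) and all 6 adipocyte markers (median -4.76) fell in dissociated bladders, all 8 fibroblast markers rose (median 1.37), and 5 of 7 blood endothelial markers rose. Summed smooth muscle markers ran from 35582 to 36937 CPM in intact and from 1839 to 2819 CPM in dissociated bladders. Summed adipocyte markers ran from 45.4 to 121.9 CPM and from 21.1 to 29.6 CPM. Of 6 T or NK markers, 2 rose and 0 fell. The part of these cells in the bulk values of Pparg and Gata3 was not tested.

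All 5 uroplakins fell, with Upk2 at -1.81 and Upk1b at -1.29, and of 9 keratins 5 rose and 0 fell, with Krt13 at 6.17 and Krt14 at 2.43. Of 13 urothelial markers, 4 rose and 5 fell. Of 24 other epithelial factors, 13 rose and 5 fell (median 0.43, against -0.03 over all genes). Klf4, a relative of Klf5, rose by 4.14 and Cebpb by 3.25, and Elf5 fell by 1.19. Of 10 Pparg targets 3 rose, with the lipid droplet gene Plin2 at 1.15, and 3 fell, with Fabp4 at -2.08. Of 11 basal attachment genes 5 rose and 0 fell.

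**Figure D5:**
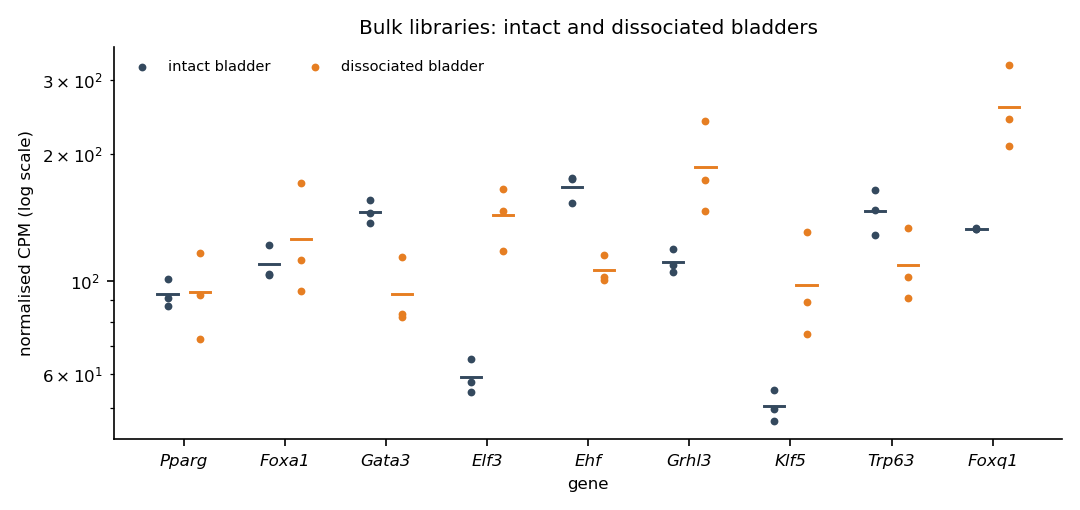
Normalised CPM (log scale) of each gene in the 3 intact and 3 dissociated bulk libraries, with bars at the means. Elf3 lies at 54.4 to 65.4 in intact and 118.0 to 165.2 in dissociated bladders, and Ehf at 152.8 to 175.4 and 100.5 to 115.2.

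With age, none of the 9 factors passed edgeR's quasi-likelihood test in urothelial-like cells or in whole sections, and Elf3 and Trp63 passed between sections when only urothelium-rich spots were used, where basal urothelium markers were also lower in the older sections. In urothelial-like cells of the libraries of 22 and 24 months against those of 3 and 12 months, with male or mixed sex as a term, 0 of 9 factors and 0% of 12697 genes passed. The number of genes with an unadjusted p under 0.05 was 324 by edgeR, and DESeq2 called 2 genes. The values of older and younger libraries overlapped for all 9 factors, and did not for 8.25% of genes. Log2 differences of the 9 ran from -0.19 (Grhl3, SE 0.14) to 0.13 (Gata3, SE 0.17).

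Between sections of 22 and 14 months, 0 of 9 factors and 0% of 14995 genes passed edgeR's test, with 2488 genes at an unadjusted p under 0.05 and 420 called by DESeq2. Elf3 had the largest difference of the 9, at 250.4 and 173.1 normalised CPM at 14 months against 114.5 and 116.6 at 22 months. Its groups did not overlap, as for 51.6% of genes, and its log2 difference was -0.87 (SE 0.18, edgeR adjusted p 0.161), with an adjusted p of 0.000459 by DESeq2. Within urothelium-rich spots only, Elf3 fell by 1.10 (SE 0.13, edgeR adjusted p 0.00417) and Trp63 by 0.56 (SE 0.11, adjusted p 0.03) at 22 months, where 1.82% of 12539 genes passed. In the same spots the summed basal urothelium markers were at 1495 and 1556 CPM at 22 months against 2865 and 3264 CPM at 14 months. The superficial ones were at 12215 and 13960 CPM against 11052 and 9550 CPM. The part of this shift between layers in the Elf3 and Trp63 values was not tested. The labels do not say whether the 2 sections of an age share animals. In urothelial-like cells the Elf3 difference with age was -0.04 (SE 0.16).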

How the data were processed

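Droplet and Visium tables hold UMI counts and the bulk table read counts per gene, as deposited by the authors. Per the submitters' processing notes, Cell Ranger, Space Ranger, Subread, featureCounts and mm10 were used; versions are not given in the sources used here. Cells needed 500 UMIs and at most 20% mitochondrial UMIs (the male tables hold no mitochondrial counts), and the barcodes with the highest simulated-doublet scores were removed (0.8% for every 1000 barcodes). Clustering used scanpy 1.11.5 (2000 variable genes without the 9 factors, 30 components, 15 neighbours, Leiden resolution 1), and classes were named from marker lists and need 50 cells to be reported. Counts were summed per library and tested with edgeR 4.0.16 (TMM scaling, filterByExpr, robust quasi-likelihood, two-sided, Benjamini-Hochberg threshold 0.05), after a check on simulated data. DESeq2 1.42.0 and other scalings, filters and left-out libraries were alternatives. Normalised CPM are scaled by TMM.

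The 9 members, the gene lists and the tests were chosen with earlier results of these data known. The genes named beside the 9 are, for each list, up to 2 with the largest rise and 2 with the largest fall that passed, and for likeness the 3 highest correlations; some genes that meet these rules are not reported here. Bulk replicate numbers did not clearly pair the libraries. Correlations of deviations in same-numbered libraries were 0.20, 0.34 and -0.07, and in the other pairs -0.44 to 0.28. For dissociated libraries 1 and 2 the same-numbered intact library had the highest correlation, and for library 3 it did not.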

Additional observations from a re-analysis of the deposited data

Results flagged for a closer look

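For 3 of the 9 factors the difference between uroplakin-high and uroplakin-low cells was not the same in male and mixed libraries, by an edgeR interaction term with Benjamini-Hochberg adjustment. This split of the libraries was chosen after seeing the data, so the p-values are not independent evidence. As mixed minus male on the log2 scale, the difference was 0.6029 for Gata3 (SE 0.09, adjusted p 0.000167), -0.5715 for Elf3 (SE 0.09, adjusted p 0.000412) and -0.9985 for Grhl3 (SE 0.24, adjusted p 0.0214). Gata3 was higher in uroplakin-high cells in 3 of 3 mixed and 0 of 2 male libraries, and Elf3 in 0 of 3 and 2 of 2. Grhl3 was higher in 5 of 5 libraries, as were 16.5% of all genes. Its uroplakin-low values in the male libraries rest on 22 and 32 UMIs. Barcode length, gene list and depth per cell split the libraries the same way, so sex cannot be told apart from these.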

How the results depend on the processing

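Of 585 repeats of a single factor's value under another setting, 508 kept direction and side of the threshold. Another 44 changed direction, with or without a change of call. Of the repeats that kept direction, 16 gained and 17 lost a call. The cause was not tested. In urothelium-rich spots all 81 repeats kept both. The settings with library size alone and with only male or only mixed libraries were chosen after seeing the data. In nuclei, 5 factors passed with library size alone (42.1% of all genes), 6 against 12-month cells only (53%), and 1 to 3 when a library was left out (27.7% to 36.3%); in sections 1 passed by DESeq2 and 2 in urothelium-rich spots. Direction changed in nuclei with library size alone for Foxa1 (0.7861), Klf5 (1.1583) and Pparg (1.0553), against 12-month cells for Pparg (0.1255), and with cells called singly for Klf5 (0.0306; -0.2056 to 0.052 with a library left out). In the uroplakin split it changed for Elf3 (0.2462) and Gata3 (-0.1601) in male libraries and for Pparg in mixed ones (0.0678; -0.068 to 0.0198 with a library left out). In bulk, Pparg was at -0.0990 with library size alone, -0.0086 without a filter and -0.1711 to 0.1808 with a library left out, and Foxa1 at -0.0824 to 0.3847. With a replicate block, Pparg was at -0.0092, Trp63 missed the threshold (adjusted p 0.0543, edgeR), 6 factors and 10011 genes passed, and no other factor's call changed. For age in cells, Foxq1 was at -0.0001 by DESeq2, -0.0287 with library size alone and -0.0111 without the sex-mix term, and Klf5 at -0.0161 and -0.1683 under the latter 2. With a library left out, age values ran from -0.0379 to 0.1097 (Ehf), -0.1848 to 0.1349 (Elf3), -0.1633 to 0.2258 (Foxq1), -0.0357 to 0.2493 (Gata3), -0.2278 to 0.3477 (Klf5), -0.056 to 0.1601 (Pparg) and -0.4342 to 0.4527 (Trp63). In sections they ran from -0.0739 to 0.0204 (Ehf), -0.1762 to 0.0033 (Gata3), -0.2099 to 0.3722 (Grhl3), -0.2104 to 0.0213 (Klf5) and -0.1755 to 0.5081 (Pparg), and in urothelium-rich spots only Foxa1 was at -0.1235 and Pparg at -0.0107. Counts of all genes moved over 1.5 times in the uroplakin split (3357, against 2107 by DESeq2, 635 thinned, 1007 in male libraries and 1999 to 3842 with a library left out), for age in cells (0, against 69 without a filter and up to 50 with a library left out) and in sections (0, against 420 by DESeq2, 287 without a filter, 38 with library size alone and up to 300 with a library left out). Library size alone moved the bulk median of all genes from -0.03 to -0.14. With 1 nuclei library and a lone section or library after leaving one out, the lone sample is assumed to vary like the others.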

Other observations

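In the detrusor-enriched library, the urothelial-like cells (347 cells) were at 429.1 CPM of Gata3, 490.3 of Klf5, 193.6 of Trp63, 184.9 of Ehf, 134.3 of Foxa1, 122.7 of Elf3, 115.8 of Pparg, 62.5 of Grhl3 and 1883 of Foxq1. The shallow urothelial-like cluster of the same library (1225 barcodes) gave lower values for each of the 9, among them 671.4 CPM of Foxq1, 160.0 of Gata3 and 139.5 of Klf5. The library has no replicate.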
